A study of Homo sapiens with 24 samples.

Results

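Of the genes measured, 10 interleukin and related cytokine genes made by cultured tumor cells were examined, namely IL1A, IL1B, IL6, IL7, IL11, IL15, IL18, IL18BP, IL32 and LIF. They were found as the 10 rows of the raw count table whose Ensembl identifiers map to these symbols, out of 39321 genes in the table. RNA-Seq had been run on 24 libraries from A498 and 786-O, human lines in long-term culture that derive from clear cell renal cell carcinoma (ccRCC), in 8 groups of 3 replicates. In each line the cells received a control siRNA (Cnsi) or a pooled siRNA that targets PD-L1 (PD-L1si), both at 20 nM, and after 24 hours either stayed without IFNγ or had 50 ng/mL of this T cell cytokine added for a further 24 hours (Cnsi IFNγ and PD-L1si IFNγ). All groups were therefore transfected, so that no group shows untouched cells, and all come from cells grown alone, without T cells. The labels give 4 groups per line, whereas the study's RNA methods list 3, without PD-L1si in the absence of IFNγ. The labels were followed. The labels do not say whether the 3 replicates came from separate cultures, so that the p-values measure the spread between these samples, which may be technical. Over the 24 libraries, all 10 genes had counts in A498 and 9 had counts in 786-O.

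These genes encode secreted messengers that tumor cells share with immune and stromal cells. IL-6, IL-11 and LIF form a family that signals through the receptor chain gp130 and the transcription factor STAT3. IL-1α, IL-1β and IL-18 belong to the IL-1 family, whose members act on NFκB, and IL-1β and IL-18 are made as precursors that are cut by caspases. IL-18 binding protein, the product of IL18BP, is a secreted decoy that binds IL-18, and IL-7 and IL-15 sustain T cells and NK cells.

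The lines are named here as the sample labels name them. The expression figure of the study attaches the profiles the other way round, to A498 for the libraries labelled 786-O and the reverse, and which naming is right could not be settled from the files. According to the study's methods the lines were also run on different sequencers, so that line and sequencer cannot be told apart. Total counts ran from 19256316 to 27907526 per library in A498 and from 26807875 to 30350461 in 786-O. CD274, which encodes PD-L1 and is the target of the siRNA, averaged 194 CPM (reads of the gene scaled to a common library total) ± 4.72 with Cnsi IFNγ and 27.7 ± 0.780 with PD-L1si IFNγ in A498, and 60.4 ± 5.10 and 31.4 ± 1.17 in 786-O (SD, n = 3). The knockdown under IFNγ was a log2 fold change of -2.81 in A498 and -0.94 in 786-O. Without IFNγ it was -2.47 in A498 and -1.415 in 786-O. With Cnsi and no IFNγ, CD274 averaged 5.07 CPM in A498 and 4.08 CPM in 786-O. The PD-L1si IFNγ libraries thus stayed above the untreated level of CD274. Of 9 markers of kidney tubule and ccRCC, 9 averaged at least 1 CPM in A498 and 7 in 786-O, where PAX2 was at 0. Of 8 leukocyte markers, 6 were among the genes counted. Their summed level was 0.260 to 0.766 CPM in A498 and 5.31 to 13.0 CPM in 786-O, where ITGAM averaged 7.93 CPM. That of 4 fibroblast markers was 1.68 to 14.1 CPM in A498 and 0.243 to 1.36 CPM in 786-O. For 4 endothelial markers it was 0 to 0.0717 CPM in A498 and 0.112 to 1.61 CPM in 786-O. These marker levels are plain CPM of the library total. In 786-O, 1475 genes with over 1000 summed counts in A498 had no count in any of the 12 libraries, against 35 genes the other way. IL32 was one of them, and a row at 0 in all 786-O libraries is treated here as not measured.

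Short stretches of sequence before the start sites show the letters that stand near the genes of this set, for 3 genes that rose together with IFNγ (IL6, IL32 and IL18BP) and for 2 whose response to IFNγ differed between the lines (IL11 and IL1B). The 250 bases before each start site in RefSeq (GRCh38.p14) were searched on both strands for a κB motif (GGGNNNNNCC), a GAS motif (TTCNNNGAA), an ISRE-type motif (GAAANNGAAA) and an AP-1 motif (TGANTCA), which are held by 54.4%, 6.57%, 3.02% and 6.57% of all 35116 such windows. Each line gives 30 bases, 5′ to 3′ on the strand of the gene, with the match in capitals. The κB matches at -73 of IL6 and at -99 of IL32 are each 2 overlapping matches, and positions are counted back from the start site.
IL6 κB, from -112, chr7:22727078-22727107: cacccgctctGGCCCCACCCtcaccctcca
IL6 κB, from -73, chr7:22727117-22727146: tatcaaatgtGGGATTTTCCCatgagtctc
IL32 κB, from -99, chr16:3065294-3065323: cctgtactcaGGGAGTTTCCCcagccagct
IL32 κB, from -68, chr16:3065325-3065354: tcccgagtctGGACTTTCCCtctgcccctc
IL18BP ISRE-type, from -67, chr11:71999540-71999569: gttaaaaagtGAAAGTGAAAtagagggtcg
IL18BP GAS, from -37, chr11:71999569-71999598: ggggcagtgctTTCCCAGAAggattgctcg
IL1B GAS, from -180, chr2:112836941-112836970: actccttgcccTTCCATGAAccagagaatt
IL11 AP-1, from -96, chr19:55370542-55370571: aggcagggagggTGAGTCAggatgtgtcag

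IL6, IL32 and IL18BP lie on the plus strand and IL1B and IL11 on the minus strand. The IL32 stretches come from 1 of 2 RefSeq windows of that gene, and its further κB matches, at -180 in this window and at -202 in the other, are not printed. The stretches of IL6 fall in an intron of 1 of its 9 annotated transcripts, those of IL32 and IL18BP overlap untranslated exons of 5 annotated transcripts each, and those of IL1B and IL11 lie before every annotated transcript. The IL18BP stretches come from 1 of 4 RefSeq windows of that gene, and of the other 3 windows 1 held a κB match and 2 held none of the motifs. The κB motif is held by most windows of all genes, and a match is a description of letters and not a bound site. IL7, IL15, IL18 and LIF had no entry in the sequence table used.

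**Figure D1:**
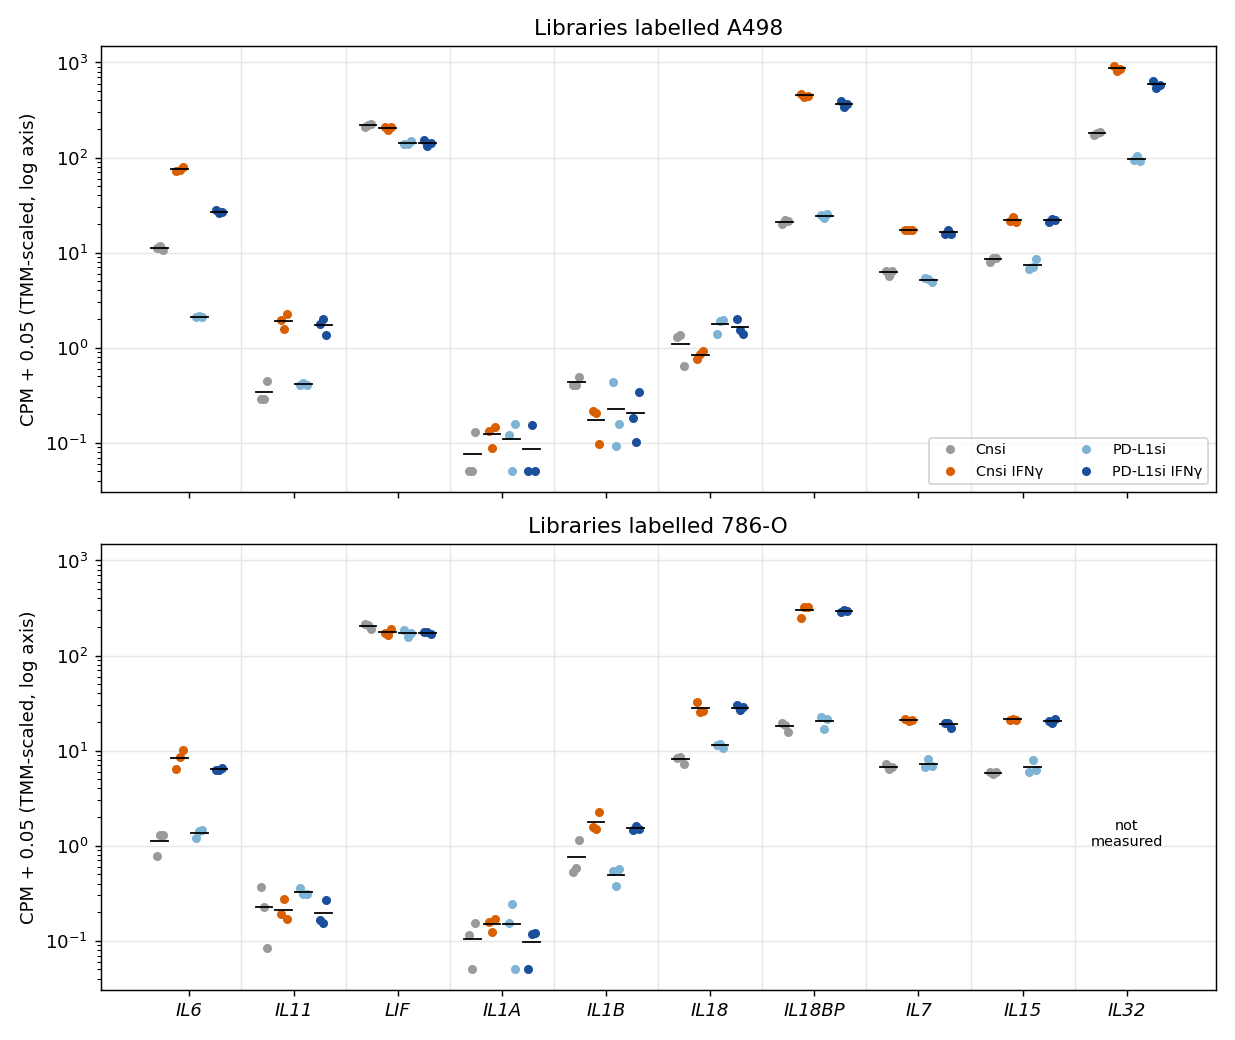
Level of each gene in each library, as TMM-scaled CPM plus 0.05 on a log axis, in the libraries labelled A498 (top) and 786-O (bottom). Points are single libraries, coloured by group, and black lines are group means of 3. LIF stood at 132.7 CPM or higher in all 24 libraries, IL18BP lay between 15.6 and 25.4 CPM without IFNγ and between 248 and 466 CPM with it, and IL1A reached at most 0.197 CPM.

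The level of each gene was expressed as CPM after scaling the libraries of a line with edgeR's TMM method, and the plot of levels shows every library. Each line was scaled separately, and genes at 0 in all 786-O libraries add nothing to the totals of that line. Levels set side by side between the lines are therefore approximate. Levels of different genes were compared only per kilobase of exon. On that scale LIF, a maintenance factor of stem cells that is also made by many tumors, led in A498 with Cnsi (56.7 CPM per kb ± 2.20, SD, n = 3), beside IL32 at 56.2 ± 1.94, a gap smaller than the spread. The next gene, IL18BP, stood at 3.62 CPM per kb. With Cnsi IFNγ the order in A498 was IL32 (270 CPM per kb), IL18BP (76.8), LIF (52.8) and IL6 (17.5). In 786-O, LIF led with Cnsi at 53.2 CPM per kb, followed by IL18 at 3.08 and IL18BP at 3.07, and with Cnsi IFNγ IL18BP led at 51.2 ± 7.63 beside LIF at 45.2 ± 3.13. IL1A had 0 to 3 counts per library in A498 and 0 to 6 in 786-O, and was left out of every test by the filter on low counts.

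IFNγ changed most of the genes that could be tested. Tests were made with edgeR's quasi-likelihood test on the raw counts of the 12 libraries of a line, with Benjamini-Hochberg adjustment over all genes tested, and the call of a change required that the adjusted p was under 0.05 and that the log2 fold change lay above 0.5 or below -0.5. With Cnsi, 7 of the 9 genes tested passed in A498 (6 higher and 1 lower), where 36.8% of all genes tested passed. In 786-O, 6 of 8 passed, all higher, against 18.5% of all genes. With PD-L1si, 6 of 9 passed in A498 against 33.5% of all genes, and 6 of 8 in 786-O against 18.4%, all of them higher. The median log2 fold change of the genes of this set with Cnsi was 1.49 in A498 and 1.71 in 786-O, beside -0.03 and 0.00488 over all genes tested. The set was chosen with earlier results of these data known, so here and below its contrast with all genes is a description. A change of RNA per cell and a change in the number of cells that carry it cannot be told apart in such bulk samples. The genes of the set that rose in both lines with both siRNAs were IL6, IL7, IL15 and IL18BP.

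**Figure D2:**
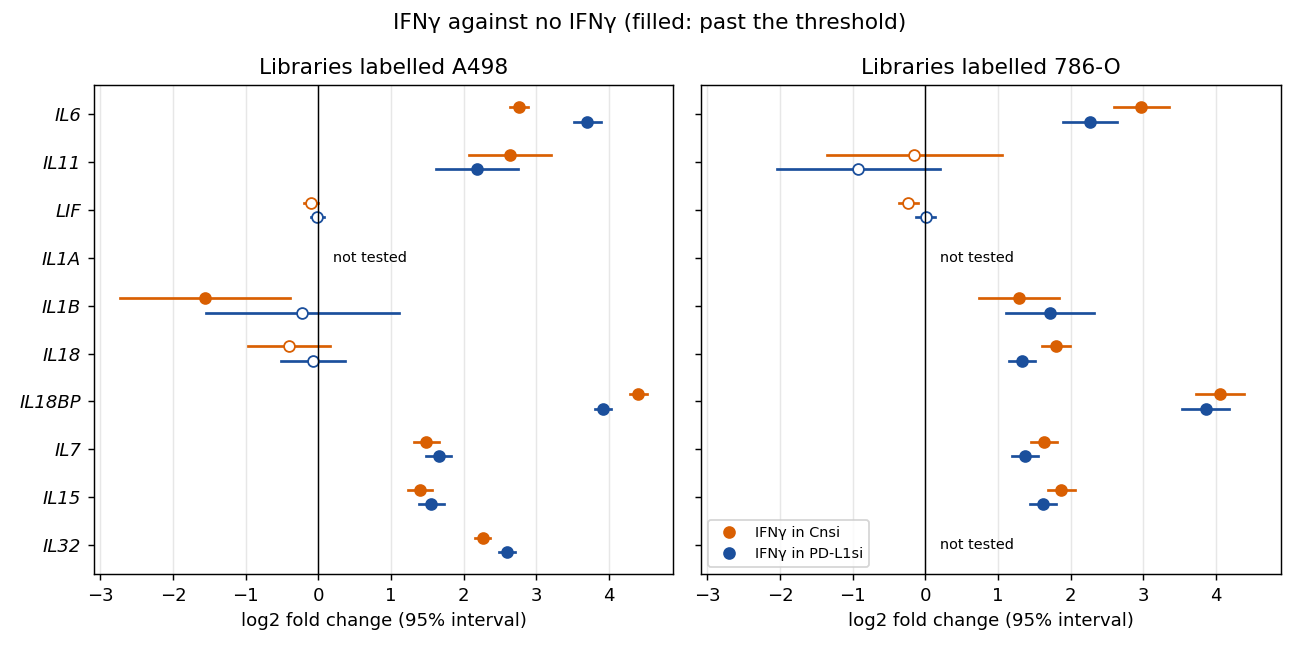
Log2 fold change with IFNγ against no IFNγ for each gene, with Cnsi (orange) and with PD-L1si (blue), in the libraries labelled A498 (left) and 786-O (right). Bars are 95% intervals from 3 libraries per group, and filled points passed the threshold. IL18BP had the largest value in each panel, between 3.86 and 4.41, and the IL11, IL1B and IL18 points lay on different sides of 0 in the panels with Cnsi.

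IL6, which encodes a cytokine of the acute phase response, rose with IFNγ in both lines. In A498 the 3 replicates had 11.2, 11.6 and 10.6 CPM with Cnsi and 72.1, 74.4 and 80.3 CPM with Cnsi IFNγ. All treated libraries stood above all untreated ones, and the log2 fold change was 2.76 (SE 0.0602, adjusted p = 4.67e-30). In 786-O the level was lower, with 0.735, 1.25 and 1.23 CPM with Cnsi and 6.41, 8.62 and 10.2 CPM with Cnsi IFNγ, which again did not overlap. The log2 fold change there was 2.97 (SE 0.181, adjusted p = 1.67e-12), and its difference from A498 was 0.13 (95% interval -0.24 to 0.50, adjusted p = 0.637). Exons of IL6-AS1 and STEAP1B lie opposite to IL6, as do those of LIF-AS1 and LIF-AS2 to LIF and of ZC2HC1A to IL7. The counting was stated to use strand, but with the setting opposite to the one the library kit usually takes, so whether reads of such partners enter these values was not settled.

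IL11, another ligand of gp130, was at a low level and rose in A498. Cnsi libraries held 6, 6 and 10 counts there and Cnsi IFNγ libraries 45, 39 and 46, or 0.239 to 0.399 CPM and 1.51 to 2.21 CPM. The log2 fold change was 2.64 (SE 0.281, adjusted p = 2.78e-10) with Cnsi and 2.19 (SE 0.275, adjusted p = 1.37e-08) with PD-L1si. In 786-O the Cnsi libraries held 10, 5 and 1 counts and the Cnsi IFNγ libraries 4, 6 and 3, and the groups overlapped. The value there was -0.15 with an interval of -1.36 to 1.05, and it moved between -0.63 and 0.60 when 1 library was left out.

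LIF did not pass the threshold with IFNγ in either line. With Cnsi its levels in A498 were 210.5, 219.9 and 227.5 CPM without IFNγ and 209.5, 194.5 and 209.5 CPM with it, and the log2 fold change was -0.10 (95% interval -0.19 to -0.01). In 786-O they were 215.3, 211.5 and 191.0 CPM without and 172.7, 164.4 and 188.2 CPM with IFNγ. These 2 groups did not overlap, and the log2 fold change of -0.23 (SE 0.0606, adjusted p = 0.00329) was below the fold threshold. Its level thus lay within a narrow range, between 132.7 and 227.5 CPM over all 24 libraries.

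Among the genes of the IL-1 family, IL1B and IL18 rose with IFNγ in 786-O. IL1B, which encodes IL-1β, had 15, 15 and 32 counts with Cnsi and 43, 39 and 56 with Cnsi IFNγ in that line (0.480 to 1.10 and 1.44 to 2.21 CPM). The log2 fold change was 1.29 (SE 0.265, adjusted p = 2.98e-04), and 1.72 (SE 0.294, adjusted p = 3.46e-05) with PD-L1si. In A498 there were 9, 9 and 11 counts without IFNγ and 4, 4 and 1 with it, again with Cnsi, and the gene fell by 1.55 on the log2 scale (SE 0.576, adjusted p = 0.0192). This call rests on 1 to 11 counts per library. The adjusted p was 0.0634 with DESeq2, 0.0578 without replicate 3 of Cnsi and 0.0861 without replicate 3 of Cnsi IFNγ.

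IL18, which encodes a cytokine that raises IFNγ production by T cells and NK cells, was at a higher level in 786-O than in A498, with each line scaled separately. In 786-O it had 8.31, 8.58 and 7.20 CPM with Cnsi and 32.1, 25.4 and 26.3 CPM with Cnsi IFNγ. The groups were far apart and the log2 fold change was 1.80 (SE 0.0908, adjusted p = 9.84e-15). In A498 it had 1.24, 1.31 and 0.598 CPM with Cnsi and 0.713, 0.814 and 0.866 CPM with Cnsi IFNγ, and the log2 fold change was -0.40 (95% interval -0.96 to 0.17). Those groups overlapped through replicate 3 of Cnsi, and without that library the value was -0.67 with an adjusted p of 0.0316.

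IL18BP had the largest change of the set in both lines. In A498 the replicates had 19.9, 22.0 and 21.6 CPM with Cnsi and 465.5, 436.8 and 446.3 CPM with Cnsi IFNγ, a 21.2-fold difference (log2 fold change 4.41, SE 0.0573, adjusted p = 5.80e-37). In 786-O they had 19.7, 18.6 and 15.6 CPM with Cnsi and 248.0, 324.3 and 326.2 CPM with Cnsi IFNγ (log2 fold change 4.06, SE 0.145, adjusted p = 5.98e-09). Its level without IFNγ was similar in the lines, at 21.2 CPM ± 1.11 and 18.0 ± 2.09 (SD, n = 3), although each line was scaled separately. With PD-L1si the log2 fold change was 3.92 in A498 and 3.86 in 786-O. Exons of NUMA1 lie opposite to IL18BP.

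**Figure D3:**
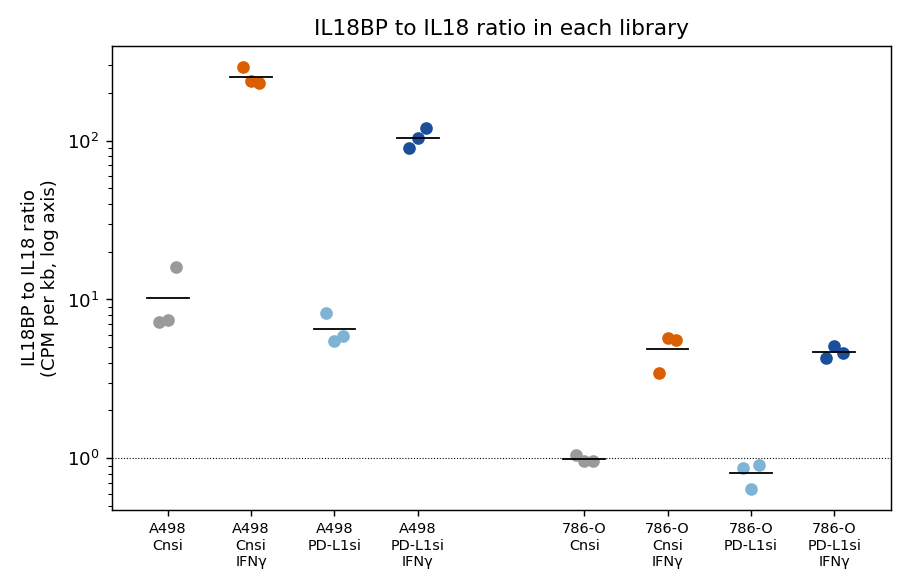
Ratio of IL18BP to IL18 in each library, from CPM per kilobase of exon, on a log axis. Points are single libraries, black lines are means of 3, and the dotted line marks a ratio of 1. The ratio was higher with IFNγ than without it in every library of both lines, and it lay between 229.5 and 291 in A498 with Cnsi IFNγ and at most 5.69 in the 786-O libraries.

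The RNA of the decoy and of its ligand were set beside each other as the ratio of IL18BP to IL18 per kilobase of exon, as a description with no test. In 786-O the ratio was 1.06, 0.963 and 0.967 with Cnsi and 3.44, 5.69 and 5.52 with Cnsi IFNγ. In A498 it was 7.17, 7.46 and 16.1 with Cnsi and 291, 239 and 230 with Cnsi IFNγ. With PD-L1si IFNγ it was 90.2, 103 and 120 in A498, below every Cnsi IFNγ library, and 4.29, 5.08 and 4.59 in 786-O, within the range of Cnsi IFNγ. The high ratios of A498 rest on 17 to 21 counts of IL18 per library with Cnsi IFNγ, and adding 0.5 CPM to both genes lowered the group mean from 253 to 155.

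IL7 and IL15, which encode survival factors of lymphocytes, rose in both lines. IL7 had 6.42, 5.61 and 6.42 CPM with Cnsi and 17.4, 17.3 and 17.1 CPM with Cnsi IFNγ in A498, and 7.19, 6.33 and 6.72 against 21.3, 20.6 and 20.8 CPM in 786-O. Treated and untreated libraries did not overlap, with log2 fold changes of 1.49 (SE 0.0815, adjusted p = 6.12e-18) and 1.63 (SE 0.0866, adjusted p = 2.87e-14). For IL15 the levels were 7.86, 8.67 and 8.77 CPM against 21.7, 23.8 and 21.2 CPM in A498, and 5.88, 5.68 and 5.90 against 21.1, 21.7 and 21.1 CPM in 786-O. Its log2 fold changes were 1.40 (SE 0.0810, adjusted p = 2.99e-17) and 1.87 (SE 0.0906, adjusted p = 4.07e-15). The lines differed by 0.06 in IL7 (95% interval -0.19 to 0.31) and by 0.39 in IL15 (95% interval 0.13 to 0.65, adjusted p = 0.0120), the second below the fold threshold.

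IL32, which encodes a cytokine with effects on NFκB in many cell types, was measured in A498. It had 174.1, 180.4 and 186.5 CPM with Cnsi and 914.0, 819.8 and 860.7 CPM with Cnsi IFNγ, without overlap, for a log2 fold change of 2.26 (SE 0.0525, adjusted p = 1.94e-26). With PD-L1si the log2 fold change with IFNγ was 2.59 (SE 0.0542, adjusted p = 1.15e-27). The small RNA gene RNU1-125P lies within its exons on the same strand.

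PD-L1si was compared with Cnsi next, in cells with and without IFNγ. These libraries include no other siRNA against PD-L1, so loss of PD-L1 and other effects of this pool cannot be told apart. In A498 IL6, IL32 and LIF were lower and IL18 was higher with PD-L1si, both with and without IFNγ. These were 4 of 9 genes under IFNγ, where 10.1% of all genes tested passed, and 4 of 9 without IFNγ, where 8.48% passed. In 786-O 0 of 8 genes passed under IFNγ (3.03% of all genes) and 0 of 8 without it (2.81%), by edgeR and by DESeq2. Without adjustment, p was under 0.05 for 1 gene under IFNγ (IL6) and for 2 without it (IL18 and LIF). The share of all genes at that cut was not counted. Within a line the comparison with IFNγ and the comparison of siRNAs share their Cnsi libraries. The smaller loss of CD274 in 786-O stands beside these counts, and its part in them was not tested.

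**Figure D4:**
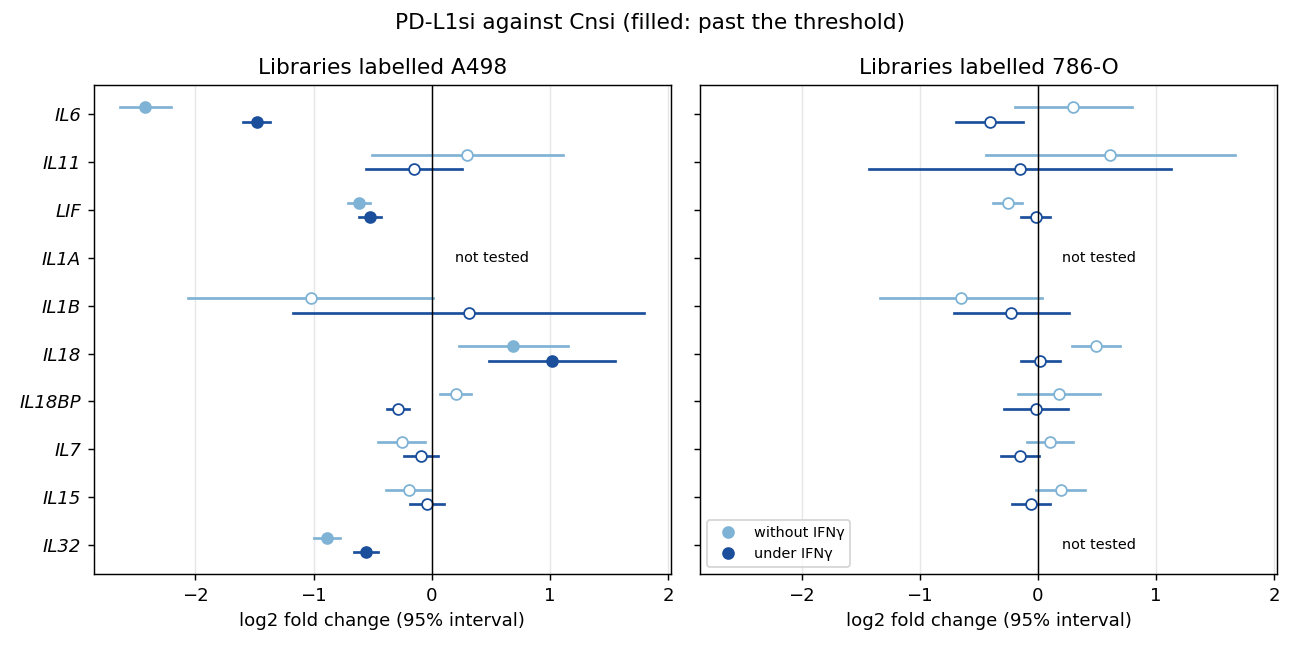
Log2 fold change of PD-L1si against Cnsi for each gene, without IFNγ (light blue) and under IFNγ (dark blue), in the libraries labelled A498 (left) and 786-O (right). Bars are 95% intervals from 3 libraries per group, and filled points passed the threshold. IL6, LIF and IL32 lay below 0 and IL18 above 0 in A498 in both conditions, and no point of 786-O was filled.

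IL6 had the largest change with PD-L1si in A498, with and without IFNγ. In A498 without IFNγ the replicates had 2.04, 2.11 and 2.06 CPM with PD-L1si, below the 10.6 to 11.6 CPM of Cnsi, and the gene fell by 2.42 on the log2 scale (SE 0.105, adjusted p = 1.48e-19). Under IFNγ the values were 27.8, 26.1 and 27.0 CPM, below the 72.1 to 80.3 CPM of Cnsi IFNγ, and it fell by 1.48 (SE 0.0542, adjusted p = 1.76e-21). The 4 groups of A498 did not overlap at all, in the order PD-L1si, Cnsi, PD-L1si IFNγ and Cnsi IFNγ. In 786-O the PD-L1si libraries had 1.15, 1.38 and 1.41 CPM without IFNγ and 6.21, 6.24 and 6.49 CPM with it. Under IFNγ the log2 fold change there was -0.41 (95% interval -0.70 to -0.12, adjusted p = 0.0501), and without replicate 1 of Cnsi IFNγ it was -0.58 with an adjusted p of 0.00121. Without IFNγ it was 0.30 (95% interval -0.20 to 0.80).

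IL32 fell by 0.89 on the log2 scale without IFNγ (SE 0.0533, adjusted p = 1.38e-14) and by 0.56 under it (SE 0.0497, adjusted p = 1.18e-10) in A498. Its PD-L1si libraries had 95.1, 104.8 and 92.6 CPM, and its PD-L1si IFNγ libraries 632.8, 543.0 and 586.5 CPM. Neither group overlapped its Cnsi counterpart. LIF fell by 0.61 (SE 0.0462, adjusted p = 3.83e-13) without IFNγ, to 140.3, 140.1 and 149.8 CPM, and by 0.52 (SE 0.0469, adjusted p = 2.97e-11) under it, to 151.4, 132.7 and 143.0 CPM. The second value was close to the fold threshold and was -0.47 without replicate 2 of PD-L1si IFNγ.

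IL18 moved the other way in A498. Under IFNγ it had 17, 21 and 18 counts in Cnsi libraries and 45, 28 and 28 in PD-L1si libraries, and the log2 fold change was 1.02 (SE 0.262, adjusted p = 0.00226). Without IFNγ the Cnsi libraries held 31, 33 and 15 and the PD-L1si libraries 38, 44 and 54 counts, with a log2 fold change of 0.69 (SE 0.228, adjusted p = 0.0185). This last call was lost without replicate 3 of Cnsi (0.43, adjusted p = 0.167), without replicate 2 of PD-L1si (adjusted p = 0.0575) and without replicate 3 of PD-L1si (adjusted p = 0.0852). In 786-O without IFNγ, where 11.5, 11.7 and 10.7 CPM with PD-L1si stood above all Cnsi libraries, the value was 0.49 (SE 0.0971, adjusted p = 8.73e-04), under the fold threshold. Under IFNγ it was 0.02 there (95% interval -0.15 to 0.19).

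The remaining genes gave smaller or less certain values with the silencing. In A498 IL18BP had 24.7, 22.8 and 25.4 CPM with PD-L1si and 398.0, 342.5 and 364.4 CPM with PD-L1si IFNγ, and its log2 fold changes of 0.20 (adjusted p = 0.0151) and -0.29 (adjusted p = 4.02e-06) had opposite signs and were under the fold threshold. IL7, IL11 and IL15 had values between -0.26 and 0.30 in A498 and between -0.15 and 0.61 in 786-O over both conditions. The 0.61 was IL11 without IFNγ, from 1 to 10 counts per library, and it ran from 0.14 without replicate 3 of Cnsi to 1.37 without replicate 1 of Cnsi. IL1B had -1.03 without IFNγ in A498 (95% interval -2.06 to 0.01) from 11, 1 and 3 counts with PD-L1si, and without the library with 11 counts, replicate 1, the value was -2.23 with an adjusted p of 0.0100. In 786-O it had -0.65 without IFNγ and -0.23 under it.

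Whether the response to IFNγ differed between the siRNAs was tested as the interaction of siRNA and IFNγ. In A498 1 of 9 genes passed, against 2.45% of all genes tested. This was IL6, whose response was larger with PD-L1si than with Cnsi by 0.94 on the log2 scale (SE 0.126, adjusted p = 1.78e-06), from a lower level without IFNγ. IL18BP responded less with PD-L1si, with -0.49 (SE 0.0791, adjusted p = 4.41e-05), just under the fold threshold, and it passed with DESeq2 (-0.51). IL32 had 0.33 (SE 0.0727, adjusted p = 0.00246). In 786-O 0 of 8 genes passed, by edgeR and by DESeq2, and 0.099% of all genes tested passed. Without adjustment, p was under 0.05 for 3 genes, and the share of all genes at that cut was not counted. These were IL18 with -0.47 (95% interval -0.73 to -0.21, adjusted p = 0.162) and IL6 with -0.71 (95% interval -1.29 to -0.13, adjusted p = 0.483). The other was LIF with 0.24 (95% interval 0.059 to 0.415, adjusted p = 0.437).

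The difference between the lines in each response was tested directly over all 24 libraries, as 786-O minus A498, for genes measured in both. In the response to IFNγ with Cnsi, 3 of 8 genes passed, against 24% of all 21584 genes tested. IL1B had 2.77 (SE 0.625, adjusted p = 2.27e-04) and IL18 had 2.12 (SE 0.283, adjusted p = 7.65e-09), both higher in 786-O, and IL11 had -2.88 (SE 0.655, adjusted p = 2.43e-04). The IL11 value ran from -3.35 without replicate 3 of 786-O Cnsi to -2.12 without replicate 1 of the same group. In the response to PD-L1si under IFNγ, 3 of 8 genes passed, against 4.57% of all genes. IL6 had 1.08 (SE 0.132, adjusted p = 9.48e-09) and LIF had 0.51 (SE 0.0792, adjusted p = 2.55e-06), both lower with the silencing in A498, and IL18 had -0.99 (SE 0.264, adjusted p = 0.00642). The LIF value was between 0.46 and 0.56 with 1 library left out, and below the fold threshold without any 1 of 6 libraries. IL18 had an adjusted p of 0.0670 without replicate 1 of A498 PD-L1si IFNγ.

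The receptors of these cytokines were followed with the same tests. Of 18 genes of receptors and receptor antagonists, 14 were tested in each line, and with IFNγ in Cnsi 8 were higher and 2 lower in A498, and 7 higher and 2 lower in 786-O, with medians of 0.82 and 0.41, against 36.8% and 18.5% of all genes that passed in either direction. IL15RA, which presents IL-15 to neighbouring cells, rose by 3.72 (SE 0.0623) and 2.89 (SE 0.105) on the log2 scale. IL7R, the receptor chain of IL-7, rose by 3.05 (SE 0.106) and 0.72 (SE 0.131), and IL1RN, the antagonist of the IL-1 receptor, by 2.44 (SE 0.587) and 4.93 (SE 0.365), from at most 5 counts per library without IFNγ. IL1R2, a decoy receptor of IL-1, fell by 1.07 (SE 0.135) and by 0.93 (SE 0.116). With PD-L1si under IFNγ, 0 receptor genes were higher and 6 lower in A498, and 1 was higher and 1 lower in 786-O, against 10.1% and 3.03% of all genes.

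Among 17 genes that process or release IL-1β and IL-18, 16 were tested in A498 and 13 in 786-O, where 4 of the list had no count. With IFNγ in Cnsi, 10 were higher and 1 lower in A498, and 7 were higher and 0 lower in 786-O, with medians of 1.19 and 0.58, again against 36.8% and 18.5% of all genes. CASP1, the protease that cuts both precursors, rose by 3.49 (SE 0.111) in A498 and 3.15 (SE 0.0703) in 786-O. AIM2, a sensor of DNA in the cytosol, went from 1 or 2 counts per library with Cnsi to 314 to 439 with Cnsi IFNγ in A498 and from 0 or 1 to 15 to 25 in 786-O. MEFV, which encodes the sensor pyrin, was measured in A498 and rose by 3.53 (SE 0.568), from 0 to 2 counts to 11 to 23. With PD-L1si under IFNγ 2 of these genes were lower in A498 (AIM2 and NLRP3). NLRP3 had no count in 786-O, where 0 of the 13 genes tested passed, beside 3.03% of all genes. The 2 of 16 genes in A498 are a share near the 10.1% of all genes.

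Of 31 other cytokine genes, 14 were tested in A498 and 13 in 786-O. With IFNγ in Cnsi, 6 were higher and 2 lower in A498, and 5 higher and 1 lower in 786-O, where 36.8% and 18.5% of all genes passed. IL12A, which encodes a subunit of IL-12 and IL-35, rose by 2.26 (SE 0.254) and 2.49 (SE 0.177), IL23A by 1.53 (SE 0.223) and 1.56 (SE 0.220), and EBI3, the partner subunit in IL-27 and IL-35, by 1.19 (SE 0.357) and 1.38 (SE 0.0743). EBI3 averaged 0.358 CPM in A498 and 15.1 CPM in 786-O with Cnsi. With PD-L1si under IFNγ, 1 was higher and 4 lower in A498, where 10.1% of all genes passed, and 0 of 13 passed in 786-O, where 3.03% did.

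Of 20 genes of the STAT3 and NFκB responses, 19 were tested in A498 and 14 in 786-O, where STAT3, NFKBIA and 4 others had no count. With IFNγ in Cnsi, 12 were higher and 0 lower in A498 and 7 higher and 0 lower in 786-O, with medians of 0.86 and 0.48, beside 36.8% and 18.5% of all genes. ICAM1, an adhesion molecule, rose by 2.25 (SE 0.0448) and 2.57 (SE 0.0501), TNFAIP3, an inhibitor of NFκB, by 1.93 (SE 0.0492) and 2.28 (SE 0.0861), and CEBPB, a transcription factor of IL6, by 2.16 (SE 0.0486) and 1.48 (SE 0.0925). With PD-L1si, 10 were lower and 0 higher in A498 without IFNγ and 7 lower and 0 higher under it, where 8.48% and 10.1% of all genes passed. In 786-O, 0 were lower in either condition and 1 was higher under IFNγ. Of all genes tested in that line, 2.81% passed without IFNγ and 3.03% under it. These lists were chosen with earlier results of these data known.

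The gene with the most similar pattern to each member was sought among 12590 genes, as the one with the highest value of the lower of its Pearson correlations over the 12 libraries of each line. For IL18BP it was NLRC5 (0.998 in both lines), for IL7 it was CXCL10 (0.997 in A498 and 0.994 in 786-O), for IL15 NMI (0.995 and 0.994) and for IL6 TRAF1 (0.987 and 0.990). The 12 libraries of a line fall into groups with and without IFNγ, so these correlations are a description only. The values were lower for LIF with SPATA20 (0.963 and 0.861), IL18 with TRAF7 (0.879 and 0.864), IL11 with MED12 (0.806 and 0.786) and IL1B with EGF (0.754 and 0.863). For IL1A, at 0 to 6 counts, the highest was 0.489 and 0.483, with YWHAZP3. TRAF1 was picked for its likeness to IL6 over these same libraries, so its own values are a description too. With PD-L1si under IFNγ it fell by 1.26 on the log2 scale (SE 0.0515) in A498 and had -0.48 (SE 0.142) in 786-O.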

How the data were processed

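RNA-Seq libraries were prepared with a stranded kit. Per the labels and the study's methods, the authors demultiplexed the reads with bcl2fastq 2.19.0, trimmed them with Trimmomatic 0.36.6, aligned them with HISAT2 2.1.0 and counted reads per gene by strand with featureCounts 1.6.3. The values used are the raw counts that the authors deposited, which are whole numbers of reads per gene and are not normalized. The table had 0 columns without a sample.

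Ensembl identifiers were matched to GENCODE release 44 (39148 of 39321). Groups came from the sample labels. In R 4.3.3, the 12 libraries of each line were scaled with TMM and fitted with edgeR 4.0.16 (quasi-likelihood test, robust, 1 mean per group, no replicate block). A gene was tested where any group of 3 libraries held 10 or more of its counts in sum, which were 20916 genes in A498 and 21209 in 786-O. Standard errors are the log2 fold change divided by the square root of F. Differences between lines were fitted on all 24 libraries. CPM are TMM-scaled, except for the cell type markers, which are plain CPM of the library total. Lengths per kilobase are merged exons. The scripts were tested on simulated data. The low counts of IL1A, IL1B and IL11 limit the precision of their values.

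The members and gene lists were chosen with earlier results of these data known. Named genes were the 10 members, CD274, the gene with the nearest pattern to each member, and from each list up to 3 genes that rose and up to 3 that fell most with IFNγ in Cnsi by the mean of the lines, among those past the threshold in every line where they were measured. NLRP3, STAT3, NFKBIA, PAX2 and ITGAM were named outside this rule, after their values were seen. Alternatives were DESeq2 1.42.0, relative log expression scaling, other filters, protein-coding genes alone, other thresholds, a replicate block, plain CPM, a pseudocount on the ratio, and each library left out in turn.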

Additional observations from a re-analysis of the deposited data

Results flagged for a closer look

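The responses of 5 genes differed between the lines by the test of the difference itself (edgeR's quasi-likelihood test over 24 libraries, adjusted over all genes tested). For IFNγ with Cnsi these were IL1B (2.77 on the log2 scale, 786-O minus A498), IL18 (2.12) and IL11 (-2.88). They were 3 of 8 genes, beside 24% of all genes tested. With Cnsi, the 3 IFNγ libraries of IL1B stood below the 3 others in A498 and above them in 786-O, and IL11 had 1 to 10 counts per library in 786-O. For PD-L1si under IFNγ they were IL6 (1.08), IL18 (-0.99) and LIF (0.51), 3 of 8 genes beside 4.57% of all genes tested. The knockdown of CD274 under IFNγ also differed, by 1.87 (SE 0.0914), as did its response to IFNγ, by -1.45 (SE 0.132). Line and sequencer cannot be told apart in these values, and the part of the CD274 difference in them was not tested.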

How the results depend on the processing

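Of 101 tests of single genes, 40 passed the threshold, and 0 of these changed sign under any alternative. Apart from changes of the threshold, 5 of the 40 lost their call in at least 1 alternative, and 6 of the other tests gained one. The tests share libraries, and the shares of all genes stand with each comparison above. The counts of genes of the set past the threshold that moved by more than 1.5 times were these. With a log2 fold change over 1, A498 had 2 with PD-L1si under IFNγ, 1 without IFNγ and 0 in the interaction, and the difference between lines in PD-L1si under IFNγ had 1. Over all genes these were 601, 553 and 119 of 20916, and 283 of 21584. With no fold threshold, the A498 interaction had 3, PD-L1si without IFNγ in 786-O had 2, and the difference between lines in IFNγ had 6. Over all genes these were 1900 of 20916, 2721 of 21209 and 8254 of 21584. The A498 interaction had 2 with DESeq2, with relative log expression scaling, with no filter and with protein-coding genes alone, and 1 to 2 with 1 library left out, IL18BP being the second gene. Over all genes those settings gave 357, 470, 476 and 373, and 399 to 581 with 1 library left out (main 513). PD-L1si without IFNγ in 786-O had 1 (IL18) with the filterByExpr filter and with protein-coding genes alone, and 0 to 1 with 1 library left out. Over all genes these settings gave 591 and 431, and 477 to 677 with 1 library left out (main 597). PD-L1si under IFNγ in 786-O had 0 to 1 with 1 library left out, the 1 being IL6 without replicate 1 of Cnsi IFNγ. Over all genes that range was 505 to 665 (main 643). Smaller moves were 6 genes for IFNγ in Cnsi in A498 with DESeq2 and with filterByExpr and 7 in 786-O with no fold threshold, and, in A498 with no fold threshold, 5 with PD-L1si under IFNγ and 6 without it. Over all genes DESeq2 gave 7040 and filterByExpr 7077 for IFNγ in Cnsi in A498 (main 7688). The counts over all genes with no fold threshold are given further below. With 1 library left out, PD-L1si without IFNγ in A498 had 3 to 5. LIF lost its call with PD-L1si under IFNγ in A498 without replicate 2 of PD-L1si IFNγ. For IFNγ in Cnsi in A498, IL1B lost its call without replicate 3 of Cnsi IFNγ. Without replicate 3 of Cnsi, IL1B lost its call and IL18 gained one. IL18BP passed in the difference between lines in IFNγ without replicate 3 of 786-O Cnsi. The mean IL18BP to IL18 ratio in A498 was 155 with Cnsi IFNγ and 78.9 with PD-L1si IFNγ when 0.5 CPM was added. Plain CPM moved 19 of 76 group levels by more than 1 SD. The causes were not tested.

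Values that crossed 0 belonged to 16 tests that did not pass. LIF with IFNγ in PD-L1si of 786-O was -0.014 with DESeq2 and with relative log expression scaling, -0.013 with no filter, -0.018 with filterByExpr and -0.032 with protein-coding genes alone. With 1 library left out, the ranges for IFNγ in PD-L1si were -0.93 to 1.00 (IL1B), -0.27 to 0.038 (IL18) and -0.063 to 0.039 (LIF) in A498 and -0.062 to 0.028 (LIF) in 786-O. For IFNγ in Cnsi, IL11 in 786-O ranged from -0.63 to 0.60. For PD-L1si under IFNγ they were -0.40 to 0.67 (IL1B) and -0.076 to 0.016 (IL15) in A498, and -0.55 to 0.14 (IL11), -0.046 to 0.13 (IL18), -0.14 to 0.044 (IL18BP) and -0.065 to 0.033 (LIF) in 786-O. The interaction of IL1B in 786-O ranged from -0.040 to 0.65. Differences between lines ranged from -0.084 to 0.30 for IL6 with IFNγ, and with PD-L1si under IFNγ from -0.90 to 0.19 (IL1B), -0.39 to 0.31 (IL11) and -0.072 to 0.021 (IL15).

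Over all genes, the counts past the threshold moved by more than 1.5 times with the thresholds. With a log2 fold change over 1 and with no fold threshold they were 3656 and 12819 for IFNγ in Cnsi in A498 (main 7688), 1878 and 8238 in 786-O (main 3914), 3204 and 12233 and 1851 and 8172 for IFNγ in PD-L1si (main 7008 and 3912), 601 and 7122 and 163 and 2974 for PD-L1si under IFNγ (main 2113 and 643), 553 and 6452 and 145 and 2721 without IFNγ (main 1773 and 597), 119 and 1900 and 0 and 46 for the interaction (main 513 and 21), 2260 and 8254 for the difference between lines in IFNγ (main 5175) and 283 and 2661 in PD-L1si under IFNγ (main 986). The 786-O interaction also had 47 with no filter and 8 to 40 with 1 library left out. The correlations of deviations from group means between libraries with the same number were weak (from -0.07 to 0.18 in A498 and -0.25 to 0.19 in 786-O), so the numbers were not treated as pairs. A replicate block changed 0 calls of the set, whose count stayed at 7 and 6 for IFNγ in Cnsi, and moved counts over all genes by factors of 0.857 to 1.04. Depth limits IL1A, IL1B and IL11 and, in A498, IL18.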
